A study of Mus musculus with 44 samples.

Results

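Interferon-stimulated genes are the genes that cells switch on when type I or type II interferon reaches its receptors. Here 37 of them were taken by gene symbol from the 27044 start-site windows of the count table: 4 sensors of foreign nucleic acid, 6 transcription factors and signalling proteins, 5 of the OAS family, 3 of the IFIT family, both Mx genes, 8 guanylate-binding proteins and 9 other effectors. All 37 were found, and all 37 passed the filter on low counts in every test. The list takes genes by name, with no threshold on a measured value, and was drawn up with earlier results of these data known.

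The study measured histone H3 methylated at lysine 4 and the binding of Snai1, a zinc-finger repressor of the Snail family, in HPC7, a mouse line of blood progenitors grown with stem cell factor. The cells carried an MSCV-IRES-GFP retrovirus with no insert (empty vector), with wild-type Snai1, or with mutant Snai1 in which phenylalanine at position 5 is replaced by alanine, which impairs binding to the demethylase Lsd1. GFP-positive cells of each kind were sorted 1 week after transduction and expanded, so all 3 groups had been through retroviral infection, and no untransduced cells are among the groups. Each construct had 3 libraries of H3K4me2 and 3 of H3K4me1, wild-type cells gave 2 IgG libraries, and Snai1 ChIP with 4 technical replicates gave 1 peak list per construct. No label ties a replicate number to its own transduction or culture, so p-values measure only the spread between these libraries, which may be technical.

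Type I interferon signals through the Ifnar1 and Ifnar2 chains and the kinases Jak1 and Tyk2 to a complex with Stat2 and Irf9 that binds the interferon-stimulated response element in target promoters. Type II interferon uses Ifngr1, Ifngr2, Jak1 and Jak2, and its target promoters hold the gamma-activated site. H3K4me2 is known to mark promoters and enhancers that are active or poised, H3K4me1 lies mostly at enhancers and on the flanks of promoters, and Lsd1 removes both marks.

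Depth and library structure set what these data could show. The total count per library ranged from 8694515 to 18199945 in H3K4me2 and from 4042976 to 8813537 in H3K4me1, and IgG had 3355479 and 2714255. Of 10 blood progenitor markers, Kit, Gata2, Tal1, Lyl1, Runx1, Fli1, Gfi1b and Myb had a mean of 113 CPM (counts scaled to 1000000 per library) or more of H3K4me2 over the 9 libraries, Lmo2 had 27.7 and Erg 3.79. The medians were 156 CPM for these markers, 25.3 for 7 macrophage and dendritic, 5.52 for 6 lymphoid, 4.77 for 5 epithelial and 6.19 for 5 fibroblast markers. Within a construct the observed variance was 9.49 to 17.7 times the counting variance between replicate 1 and replicates 2 or 3, and 0.98 to 2.3 times between replicates 2 and 3. Between constructs it was 2.18 to 4.74 times within replicate 1 and 5.14 to 12.5 times within replicates 2 and 3. Replicate 1, and replicates 2 with 3, are called the batches here, though the labels name none. In H3K4me1 the empty-vector libraries 2 and 3 were within sampling noise of each other and entered the tests as 1 sample. Whole chromosomes also differed between constructs in replicates 2 and 3. Construct differences are therefore shown for all libraries, for replicate 1 and for replicates 2 and 3, on the scale of log2(CPM + 0.5) where a batch is shown alone. The 3 comparisons share libraries and are not independent of each other.

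The sequence that ties these genes to interferon could be read in the RefSeq promoters (GRCm38.p6, 250 bases before to 50 after each start), which were given for 26 of the 37 genes. The response element was searched on both strands as GAAANNGAAA. It was present in 15 of the 26 (57.7%) and in 3.99% of all 27025 genes with a promoter in the table (a gene counts with a match in any of its promoters), and with the 250 bases before the start alone in 12 of 26 and 3.46%. The form shorter by 1 base, GAAANNGAA, which contains every match of the longer one, was present in 18 of 26 and 9.76% of genes. The gamma-activated site TTCNNNGAA was in 7 of 26 (26.9%) and 9.55% of genes. A match is a description of the sequence and says nothing of binding. The elements of 10 genes follow, chosen to span the H3K4me2 levels and listed from high to low, each in the 5′ to 3′ direction of its gene with a single element in capitals (TTTC at its start where it lies on the opposite strand). In Bst2, Isg15 and Oas1a a further match that overlaps the capitals is not marked.
Gbp2, chr3:142620596-142620621, + strand: tcttttagTTTCACTTTCactgtctt
Ddx58, chr4:40239806-40239831, - strand: tgaggcagTTTCGATTTCctatggcc
Bst2, chr8:71537579-71537604, - strand: aggaaaatGAAACTGAAAggctgcag
Oas3, chr5:120777717-120777742, - strand: agggaggaGAAAACGAAAgtgaaggg
Stat2, chr10:128270268-128270293, + strand: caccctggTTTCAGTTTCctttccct
Rsad2, chr12:26456555-26456580, - strand: ggtccaacTTTCATTTTCagaaaaca
Isg15, chr4:156200867-156200892, - strand: aggaaaccGAAACAGAAAatagctct
Ifit1, chr19:34640796-34640821, + strand: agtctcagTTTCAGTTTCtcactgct
Ifit3, chr19:34583399-34583424, + strand: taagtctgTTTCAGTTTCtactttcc
Oas1a, chr5:120907522-120907547, - strand: gggaaatgGAAACTGAAAatctactt
The same element stood at start sites with very different levels of H3K4me2: Gbp2 held a mean of 92.6 CPM over the 9 libraries and Oas1a 2.86. The median H3K4me2 level was 37.2 CPM for the 15 genes with the element, 53.1 for the 11 without it and 11.2 for the 11 with no promoter sequence. For H3K4me1 these medians were 37.3, 49.6 and 24.7 CPM.

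Snai1 belongs to the Snail family, which binds the E-box CAGGTG. This motif, searched on both strands, was present in a promoter of 7 of the 26 genes (Bst2, Cmpk2, Irf9, Oasl2, Rsad2, Samd9l and Trim25), or 26.9%, beside 22.6% of all genes. The wider E-box CANNTG, which includes CAGGTG, was in 19 of 26 (73.1%) and 75% of all genes. The authors' lists held 137 empty-vector, 2929 wild-type and 12037 mutant peaks. Of the 37 genes, 0 had an empty-vector peak within 5 kb of either gene end, beside 0.493% of 25173 genes with coordinates. A wild-type peak lay near 1 gene, Bst2 (7.81% of all genes), and a mutant peak near 10 (28.4% of all genes). Among the 10608 genes at or above the members' median H3K4me2 level of 37.2 CPM, 15.8% had a wild-type peak and 56.6% a mutant peak, and of the 19 interferon-stimulated genes in that range 1 and 9 did. Each list pools technical replicates and has no replicate check, and no test was made.

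Bst2 encodes tetherin, a membrane protein that holds budding virus on the cell. Its wild-type peak (chr8:71537075-71537536) lay across the start site with the authors' fold enrichment of 5.81 and -log10 q of 6.15, and a mutant peak (chr8:71536927-71537464) of 11.3-fold and -log10 q of 31.7 ended 8 bp short of that start. Mutant peaks near other genes were those of Irf9 (7.78-fold), a subunit of the factor that binds the response element, and Cmpk2 (7.58), a mitochondrial nucleotide kinase. Others were those of Oasl1 (5.84), Trim25 (5.71), the ubiquitin ligase that activates the sensor RIG-I, Oas3 (5.54) and Irf7 (4.96), the factor that amplifies interferon production. Lower in enrichment were those of Zbp1 (4.04), a sensor of Z-form nucleic acid, and Stat2 (3.29). Eif2ak2, which encodes the kinase PKR, had 2 mutant peaks (5.47 and 2.89). Outside the gene lay the peaks of Zbp1 (4587 bp from the nearest end, -log10 q of 3.46) and Oasl1 (975 bp, 12.8). So did the stronger peak of Eif2ak2 (389 bp, 7.98). The peaks of Stat2 and Trim25 and the weaker peak of Eif2ak2 lay over the start site, and the peak of Irf9 reached into the promoter of its second listed start. The 250 bases before the start are shown for Bst2, Stat2 and Trim25, where a peak reaches into them and a motif is present (those of Eif2ak2 and of the second Irf9 start hold neither motif), and, as the gene with the element and the most H3K4me2 and no peak, for Gbp2. Capitals mark GAAANNGAAA or CAGGTG on either strand.
Bst2, chr8:71537473-71537722, - strand: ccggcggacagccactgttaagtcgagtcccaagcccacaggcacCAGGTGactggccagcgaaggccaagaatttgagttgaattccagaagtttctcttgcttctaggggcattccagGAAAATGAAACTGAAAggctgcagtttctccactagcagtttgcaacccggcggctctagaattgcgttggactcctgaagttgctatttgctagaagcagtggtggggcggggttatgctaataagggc
Stat2, chr10:128270248-128270497, + strand: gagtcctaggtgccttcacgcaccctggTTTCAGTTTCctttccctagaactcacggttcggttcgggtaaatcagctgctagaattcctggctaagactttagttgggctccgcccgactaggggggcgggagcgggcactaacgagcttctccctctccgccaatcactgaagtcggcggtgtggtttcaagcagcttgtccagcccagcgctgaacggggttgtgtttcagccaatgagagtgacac
Trim25, chr11:88999153-88999402, + strand: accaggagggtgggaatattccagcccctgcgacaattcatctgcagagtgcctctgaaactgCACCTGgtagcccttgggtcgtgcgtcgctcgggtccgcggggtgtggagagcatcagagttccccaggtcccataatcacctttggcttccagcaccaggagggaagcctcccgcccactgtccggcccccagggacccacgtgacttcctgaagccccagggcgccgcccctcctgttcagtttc
Gbp2, chr3:142620413-142620662, + strand: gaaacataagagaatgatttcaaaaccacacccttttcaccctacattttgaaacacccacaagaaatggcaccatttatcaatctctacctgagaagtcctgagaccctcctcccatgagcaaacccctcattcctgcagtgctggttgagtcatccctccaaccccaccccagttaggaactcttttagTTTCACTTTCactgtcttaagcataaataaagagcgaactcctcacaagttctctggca
In Bst2 the E-box began 205 bases before the start and a pair of overlapping response elements began 130 and 124 bases before it. In Stat2 the response element began 222 bases before the start, in Trim25 the E-box 187 bases and in Gbp2 the response element 59 bases before it. No listed peak covered any of these motifs in the 4 stretches.

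**Figure D1:**
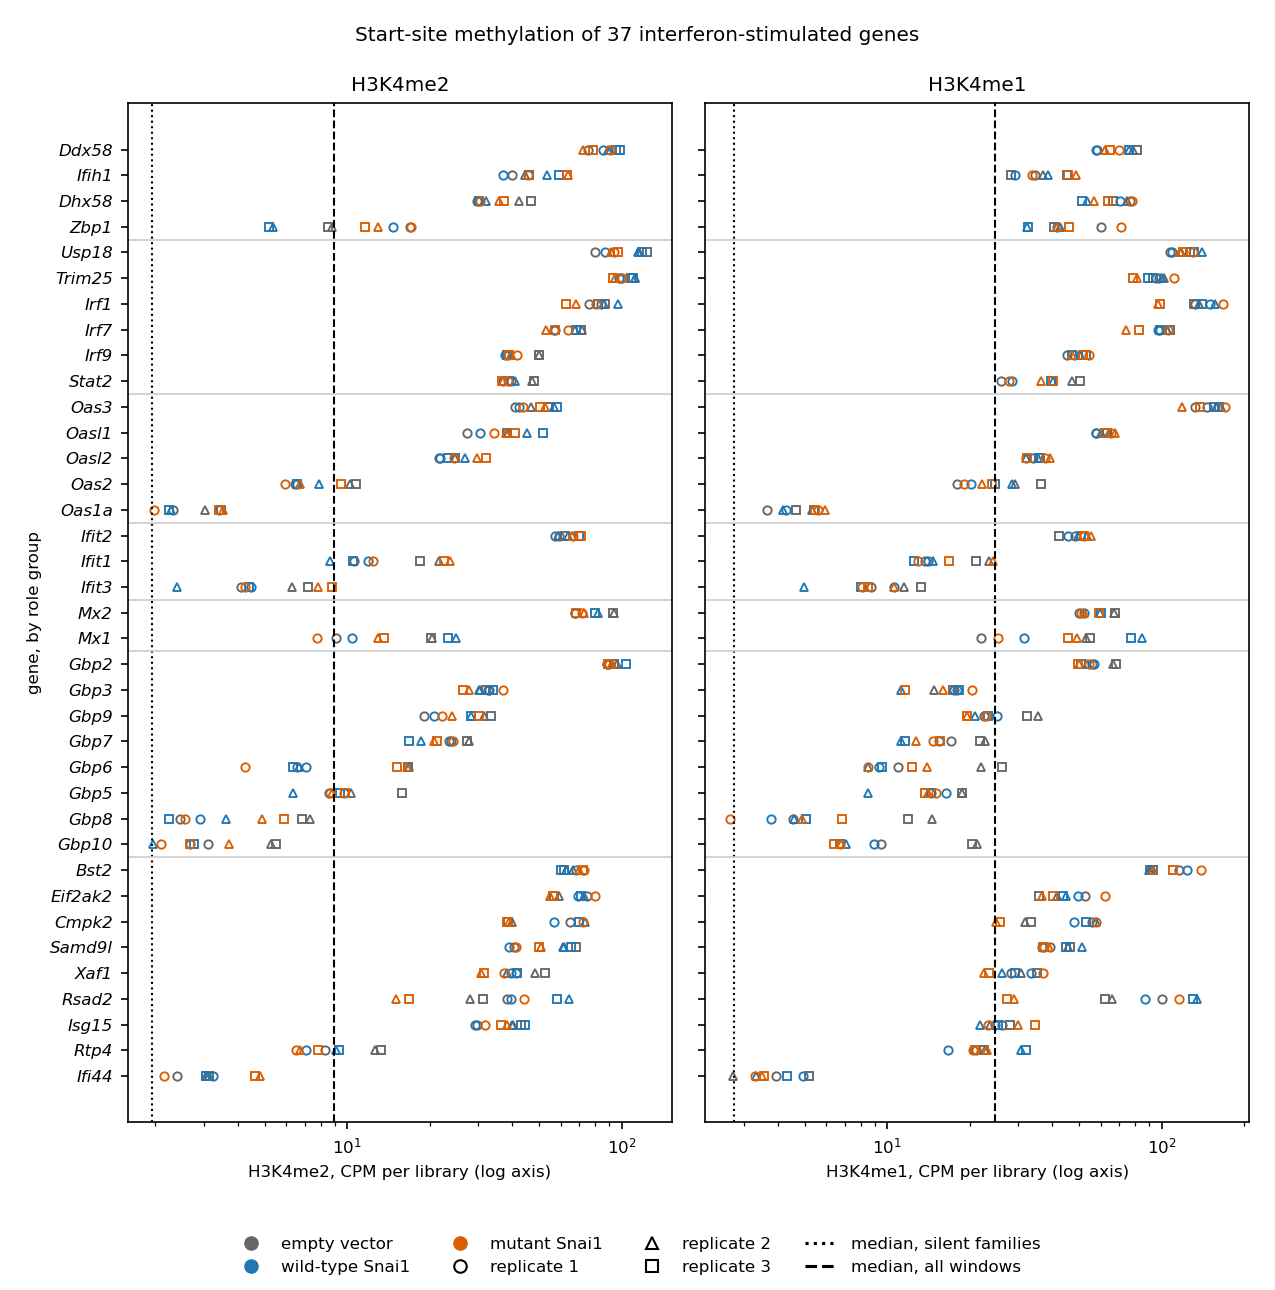
H3K4me2 (left) and H3K4me1 (right) in CPM on a log axis for each of the 37 genes in each of 9 libraries, grouped by role and ordered by mean H3K4me2; colours give the construct, shapes the replicate, and vertical lines the medians of silent gene families (1.95 and 2.76 CPM) and of all windows (8.97 and 24.8 CPM). In H3K4me2 31 of the 37 means lie above the median of all windows, and the spread between genes is far larger than between libraries of a gene.

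Most of the 37 start sites lay above the silent gene families in both marks, and the labels name no interferon treatment, while 13 in H3K4me2 and 14 in H3K4me1 lay above IgG. Mean H3K4me2 over the 9 libraries was above the median of all windows (8.97 CPM) at 31 genes, with a median of 37.2 CPM (quartiles 11.2 and 62.9). Olfactory and vomeronasal receptor genes, which are silent in blood cells, had a median of 1.95 CPM, and 34 of the 37 lay above 2 times that level. For H3K4me1 the median was 41.9 CPM beside 24.8 for all windows and 2.76 for the silent families, with 24 genes above the first and 35 above 2 times the second. All windows have 1 nominal size, 5 kb around the start site, so levels are compared between genes within a mark. Values in the next paragraphs are means over 9 libraries in CPM unless libraries are given.

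Signalling genes stood highest. Trim25 (H3K4me2 103, H3K4me1 94.3) and Usp18 (103 and 122), the ISG15 protease that also blocks the type I receptor, led H3K4me2. In H3K4me2 Trim25 had 99.6, 112 and 108 CPM in empty-vector replicates 1, 2 and 3, 97.5, 112 and 110 in wild type, and 100, 94.6 and 92.9 in the mutant. Usp18 had 79.7, 116 and 124, then 87.1, 115 and 119, then 93.8, 91.6 and 96.6. All 9 libraries of both genes thus lay far above the median window, and the constructs overlapped. Irf1, the factor first known for the interferon beta promoter, had 80.3 and 135, Irf7 62.9 and 97.1, Irf9 41.5 and 49.6, and Stat2 40.4 and 37.3. For Irf1 H3K4me1 the libraries had 132, 137 and 131 CPM with the empty vector, 150, 156 and 141 with wild type, and 168, 97.2 and 98.5 with the mutant. Mutant replicate 1 was the highest of the 9 libraries and mutant replicates 2 and 3 the lowest. Usp18 H3K4me1 was 107, 118 and 127, then 109, 140 and 131, then 130, 117 and 120.

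The sensors were graded. Ddx58, which encodes RIG-I, had 86.2 CPM of H3K4me2 and 69.5 of H3K4me1, Ifih1 (MDA5) 50.3 and 37.9, and Dhx58 (LGP2), their regulator without a signalling domain, 35 and 65.7. Zbp1 had little H3K4me2 (11.2) and more H3K4me1 (45.5).

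The OAS family, which makes or relates to enzymes that make the 2-5A activator of RNase L, spanned nearly the whole H3K4me1 range of the list and the lower part of its H3K4me2 range. Oas3 was the highest of the 37 in H3K4me1 (150) with 49.5 of H3K4me2: its H3K4me1 libraries had 132, 158 and 155 CPM with the empty vector, 147, 165 and 162 with wild type, and 170, 119 and 138 with the mutant. Oasl1 had 38.3 and 62.3, Oasl2 25.5 and 34.9, and Oas2 7.84 and 24.7. Oas1a was the lowest of the 37 in H3K4me2 (2.86), with 2.32, 3.04 and 3.47 CPM in empty-vector, 3.42, 2.29 and 2.25 in wild-type and 1.98, 3.53 and 3.41 in mutant libraries, close to the silent families. Its H3K4me1 was 4.93.

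In the IFIT family, whose proteins bind viral RNA, Ifit2 (63.8 and 49.9) stood above Ifit1 (15.6 and 17) and Ifit3 (5.53 and 9.37). The start of Ifit1 lies 146 bp from that of Ifit1bl2, whose window held 15.5 CPM of H3K4me2, so these windows share reads and cannot be told apart. Mx2 (77.3 and 57.7) and Mx1 (15.8 and 49.3) encode dynamin-like antiviral GTPases, and both are annotated as transcribed pseudogenes in the RefSeq table. Among guanylate-binding proteins, GTPases that attack the vacuoles of intracellular microbes, Gbp2 had 92.6 and 56.3, with H3K4me2 of 88.1, 96.4 and 93.7 CPM in empty-vector, 88.5, 92.1 and 104 in wild-type and 89.8, 91.9 and 89.1 in mutant libraries. Gbp3 had 31.5 and 16.1, Gbp9 26.4 and 24.6, Gbp7 22.6 and 15.8, Gbp6 10.7 and 13.5, Gbp5 9.72 and 14.9, Gbp8 4.31 and 6.54, and Gbp10 3.31 and 10.4. Gbp6, Gbp8, Gbp9 and Gbp10 lie together on chromosome 5 and the other 4 on chromosome 3.

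Among the other effectors, Rtp4 and Ifi44 were the lowest in both marks. Bst2 had 67.4 and 105, Eif2ak2 66 and 45.3, Cmpk2 54.7 and 43, Samd9l, a restriction factor of poxviruses, 53.1 and 41.9, Xaf1, an antagonist of the apoptosis inhibitor XIAP, 40.1 and 29.5, Rsad2, which encodes the radical SAM enzyme viperin, 37.2 and 83.6, and the ubiquitin-like Isg15 36.9 and 26.4. Isg15 starts 2466 bp from AW011738 (41.1 CPM of H3K4me2) and Bst2 5458 bp from Mvb12a (75.1), so these windows may share reads. Rtp4 had 8.98 and 23.4. Ifi44, a cytoplasmic protein induced in antiviral responses, had 3.29 and 3.86, the lowest H3K4me1 of the 37. Its H3K4me2 libraries had 2.39, 3.14 and 3.14 CPM with the empty vector, 3.25, 3.06 and 3.07 with wild type and 2.16, 4.82 and 4.6 with the mutant, and its H3K4me1 libraries had 3.94, 2.74 and 5.17 CPM with the empty vector, 4.91, 3.32 and 4.3 with wild type, and 3.29, 3.48 and 3.54 with the mutant.

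Beside IgG of the same wild-type cells, with CPM on column totals, 13 genes had all 3 H3K4me2 libraries above both IgG libraries (36.6% of all windows did) and 18 had all 3 below both (56.4%). For H3K4me1 14 lay above (31.6% of all windows) and 16 below (51.9%). The median log2 of the mark over IgG was -0.17 in H3K4me2 beside -2.07 for all windows and -3.78 for the silent families, and -0.21 beside -0.53 and -3.12 in H3K4me1. The highest were Usp18 in H3K4me2 (1.37) and Oas3 in H3K4me1 (1.86), and the lowest Ifi44 (-3.6 and -3.15). CPM on column totals sets each window's share of the mark against its share of IgG, so a window below IgG is not shown to lack the mark. Below both IgG libraries in both marks were Ifit1, Ifit3, Oas1a, Oas2, Stat2, Gbp3, Gbp5, Gbp6, Gbp7, Gbp8, Gbp10, Ifi44, Zbp1 and Rtp4.

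The comparison of wild-type Snai1 with the empty vector asks whether added Snai1 goes with other levels of the marks. In H3K4me2, 0 of the 37 genes passed edgeR's quasi-likelihood test at an adjusted p of 0.05 (Benjamini-Hochberg over all windows), beside 0.00388% of 25742 windows, and the smallest adjusted p was 0.519. An unadjusted p under 0.05 was found for 5 genes (7.32% of all windows), DESeq2 called 0 of the 34 genes it gave an adjusted p (0.563%), and 3 genes had libraries that did not overlap between the groups (12.9%). The members' median log2 fold change was -0.046 and that of all windows -0.006. In H3K4me1, 0 of 37 passed (0% of 25728 windows; smallest adjusted p = 1), 4 had an unadjusted p under 0.05 (2.88%), DESeq2 called 0 (0.00371%), 4 did not overlap (10.8%), and the medians were -0.040 and -0.016.

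The smallest p in both marks was at Gbp10, one of the guanylate-binding proteins with little of either mark. Its H3K4me2 libraries had 3.11, 5.29 and 5.49 CPM with the empty vector and 2.68, 1.97 and 2.76 with wild type, so all 3 wild-type libraries lay below all 3 others, by little in replicate 1 (log2 fold change -0.87, SE 0.298, edgeR adjusted p = 0.519). Its H3K4me1 libraries had 9.48, 21.2 and 20.3 CPM with the empty vector and 8.94, 7.05 and 6.73 with wild type (log2 fold change -1.0, SE 0.33). The difference was -0.08 in replicate 1 and -1.53 in replicates 2 and 3, and here empty-vector replicates 2 and 3 were the high libraries. Gbp8, in the same cluster on chromosome 5, had 2.46, 7.35 and 6.83 CPM of H3K4me2 with the empty vector and 2.91, 3.61 and 2.25 with wild type (-0.90, SE 0.407), again with replicates 2 and 3 of the empty vector high and replicate 1 among the low ones. Gbp6 H3K4me1 was 10.9, 22 and 26.2 CPM against 9.32, 8.5 and 9.53 (-0.95, SE 0.348), and Gbp7 H3K4me1 17.1, 22.7 and 21.7 against 15.4, 11.2 and 11.6 (-0.62, SE 0.259), both without overlap. Gbp5, which promotes inflammasome assembly, had H3K4me2 of 9.77, 10.3 and 15.8 against 8.56, 6.34 and 9.4 CPM (-0.55, SE 0.261), also without overlap.

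Outside this family, Rsad2 H3K4me2 was 38.3, 28 and 31.2 CPM with the empty vector and 39.4, 64 and 57.9 with wild type (0.72, SE 0.33), with no overlap and replicate 1 nearly equal. Ifit1 H3K4me2 was 10.6, 21.6 and 18.4 against 11.9, 8.63 and 10.5 (-0.69, SE 0.316), which overlapped. Irf1 H3K4me1, 132, 137 and 131 against 150, 156 and 141, did not overlap and had nearly the same log2 difference in replicate 1 (0.18) and replicates 2 and 3 (0.15), with a fitted value of 0.16 (SE 0.253, adjusted p = 1).

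Within replicates 2 and 3 alone, a fit added after the data were seen, 20 of the 37 genes passed in H3K4me2 (23.5% of all windows) and 17 in H3K4me1 (28.6%). These libraries may be technical repeats, so passing there is no test of the construct, and the members' shares were not tested against windows of like level. Of the 37 genes, 12 differed by more than 0.5 on the log2 scale in replicates 2 and 3 (18.4% of all windows) and 0 in replicate 1 (4.35%) in H3K4me2. In H3K4me1 these counts were 11 (22.2%) and 2 (9.3%). The sign was the same in replicate 1 and in replicates 2 and 3 at 19 genes in H3K4me2 (49.4% of all windows) and 16 in H3K4me1 (41.2%). Of 7 macrophage and dendritic markers 0 passed in either mark. Their median log2 fold change was -0.68 (-0.99 to 0.07) in H3K4me2 and -0.08 (-0.99 to 0.09) in H3K4me1. For the mutant against the empty vector their medians were -0.38 and -0.40. For wild type against the empty vector the 5 epithelial markers had medians of -0.24 and -0.30 in H3K4me2 and H3K4me1. Those of 6 lymphoid markers were -0.04 and 0.09, of 5 fibroblast markers 0.08 and -0.11, and of 10 blood progenitor markers 0.01 and 0.05. The part of any of these lists in the differences was not tested.

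For Snai1 with impaired Lsd1 binding the comparison is that of mutant and empty-vector cells. In H3K4me2, 0 of 37 genes passed edgeR's test (0% of all windows; smallest adjusted p = 0.952), 4 had an unadjusted p under 0.05 (4.95%), DESeq2 called 0 (0.0222%) and 4 did not overlap (6.86%). The median was -0.149 with 24 of 37 negative, beside 0.026 for all windows. In H3K4me1, 0 passed (0%; smallest adjusted p = 1), 1 had an unadjusted p under 0.05 (1.61%), DESeq2 called 0 (0% of windows), 6 did not overlap (7.96%), and the median was -0.122 with 25 negative, beside -0.003. The H3K4me2 median was 0.05 in replicate 1 and -0.26 in replicates 2 and 3, and the H3K4me1 median 0.09 and -0.28, so the negative values came from replicates 2 and 3 and the sign was the other in replicate 1. Less the median of each gene's chromosome, the values in replicates 2 and 3 were -0.22 and -0.23.

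Xaf1 had the smallest p in H3K4me2. Its libraries had 41.1, 48.5 and 52.7 CPM with the empty vector and 37.3, 30.6 and 31.5 with the mutant, so the 3 mutant libraries lay below the 3 others (log2 fold change -0.51, SE 0.135, unadjusted p = 0.00203, edgeR adjusted p = 0.952). Without mutant replicate 1 or without empty-vector replicate 1 it passed (adjusted p = 0.0399 and 0.0405), in fits where construct and batch are partly confounded. Rtp4, a chaperone of membrane receptors, had 8.32, 12.6 and 13.3 CPM against 6.52, 6.72 and 7.83 (-0.70, SE 0.252), and Gbp10 3.11, 5.29 and 5.49 against 2.1, 3.7 and 2.67 (-0.71, SE 0.292), the first without overlap. Stat2, 39.6, 47.2 and 47.9 against 38.6, 36.8 and 36.7 (-0.26, SE 0.122), did not overlap either, though replicate 1 differed by -0.03. Ifit2 differed by nearly the same amount in both batches: 58.9, 58.7 and 61.9 CPM against 66.5, 65.7 and 71.3 (0.18, SE 0.101), with 0.17 in replicate 1 and 0.18 in replicates 2 and 3, where the median of its chromosome 19 was 0.06 and 0.11.

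In H3K4me1 Gbp10 again had the smallest p, with 9.48, 21.2 and 20.3 CPM against 6.71, 6.78 and 6.38 and no overlap (-1.20, SE 0.333, unadjusted p = 0.00404, adjusted p = 1). Gbp8 was 4.52, 14.6 and 11.9 against 2.66, 4.87 and 6.85 (-0.97, SE 0.458) and Gbp9 22.5, 35.3 and 32.2 against 22.9, 19.5 and 19.6 (-0.45, SE 0.233), and both overlapped. Gbp7 (17.1, 22.7 and 21.7 against 14.7, 12.7 and 15.6; -0.46, SE 0.259) and Gbp2 (55.9, 66.6 and 68.1 against 54.6, 50.2 and 49.6; -0.26, SE 0.157) did not overlap. Nor did Samd9l, with 39.1, 45.7 and 46.4 against 37.3, 38.9 and 36.9 (-0.18, SE 0.182). Ifit2 had 48.3, 49.4 and 42.1 against 52, 55.1 and 52 (0.17, SE 0.153), the direction it had in H3K4me2, and Oas1a, at a level near the silent families, 3.65, 5.31 and 4.65 against 5.57, 5.91 and 5.43 (0.37, SE 0.279). Within replicates 2 and 3 alone 20 of 37 passed in H3K4me2 (32.7% of all windows) and 19 in H3K4me1 (24.2%). More than 0.5 on the log2 scale separated the groups at 6 genes in replicates 2 and 3 (17.2% of all windows) and at 1 in replicate 1 (7.29%) in H3K4me2, and at 7 (16%) and 2 (9.1%) in H3K4me1. The sign in replicate 1 was that of replicates 2 and 3 at 17 genes in H3K4me2 (34.2% of windows) and 16 in H3K4me1 (43.5%).

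Wild type was set against the mutant, the comparison of the 2 forms of Snai1, whose levels in these cells were not compared here. In H3K4me2, 0 of 37 genes passed edgeR's test (0%; smallest adjusted p = 0.503), 4 had an unadjusted p under 0.05 (9.9%), DESeq2 called 0 of 34 (0.404%) and 4 did not overlap (9.22%). The median was 0.053 beside -0.042 for all windows. In H3K4me1, 0 passed (0%; smallest adjusted p = 0.898), 1 had an unadjusted p under 0.05 (5.24%), DESeq2 called 0 of 35 (0.154%), 2 did not overlap (8.7%), and the medians were 0.045 and -0.012.

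Rsad2 had the smallest p in H3K4me2 and the largest difference of all members in both marks. Its H3K4me2 was 39.4, 64 and 57.9 CPM in wild-type and 44.2, 15.1 and 16.8 in mutant libraries (log2 fold change 1.07, SE 0.332, unadjusted p = 0.00662, edgeR adjusted p = 0.503). Its H3K4me1 was 87.2, 135 and 130 against 116, 28.9 and 27.4 (1.01, SE 0.475, edgeR adjusted p = 0.962). In both marks mutant replicate 1 lay above wild-type replicate 1, and mutant replicates 2 and 3 lay far below wild-type replicates 2 and 3: the log2 differences were -0.16 and 1.90 in H3K4me2 and -0.40 and 2.22 in H3K4me1. With a batch term and replicates 2 and 3 of each construct summed to 1 sample, Rsad2 was the 1 gene of the 37 to pass in H3K4me2 (log2 fold change 0.91, edgeR adjusted p = 0.00788; 0.45% of 26018 windows passed), and in H3K4me1 it did not (0.94, edgeR adjusted p = 0.39). Without mutant replicate 1, 7 of the 37 passed in H3K4me2, namely Rsad2 (1.78, adjusted p = 0.00592), Cmpk2, Eif2ak2 and Irf1 with higher and Gbp6, Ifit1 and Ifit3 with lower values in wild type, beside 16.6% of all windows, a share near that of the members. In H3K4me1 1 passed, Rsad2 (2.06, edgeR adjusted p = 0.0295), beside 0.823% of all windows. In these fits construct and batch are partly confounded. Of the 7 genes, Eif2ak2 differed by 0.37 in H3K4me2 in replicates 2 and 3, where its chromosome 17 had a median of 0.31. With the chromosome's median in brackets, the others had Rsad2 1.90 (-0.08), Cmpk2 0.88 (-0.08), Irf1 0.44 (0.14), Gbp6 -1.22 (0.02), and Ifit1 and Ifit3 -1.23 (-0.15).

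Ifit1 H3K4me2 was 11.9, 8.63 and 10.5 CPM in wild type and 12.4, 23.6 and 22.5 in the mutant, without overlap (-0.91, SE 0.315), and replicate 1 differed by -0.06. Irf1, 83.8, 96.5 and 82.1 against 80.5, 68.3 and 62.6 (0.31, SE 0.116), and Xaf1, 39.4, 38.2 and 41.5 against 37.3, 30.6 and 31.5 (0.26, SE 0.135), did not overlap, each with most of the gap in replicates 2 and 3. Bst2, the gene with peaks in both lists, had 68.2, 62.6 and 60.1 CPM against 72.8, 70 and 72.1, without overlap (-0.17, SE 0.0972, adjusted p = 0.511). In replicates 2 and 3 it differed by -0.21 while its chromosome 8 had a median of -0.36. In H3K4me1 the smallest p was at Zbp1 (41.7, 32.4 and 32.7 against 71.1, 41.7 and 46.1, log2 fold change -0.57, SE 0.231). There replicate 1 differed by -0.76 and replicates 2 and 3 by -0.43, while the medians of its chromosome 2 were -0.04 and -0.26. Cmpk2 had 48, 57.9 and 52.9 against 57.5, 24.9 and 25.8 (0.54, SE 0.314), which overlapped, and Oas1a 4.28, 4.15 and 5.42 against 5.57, 5.91 and 5.43 (-0.29, SE 0.258), which did not. Within replicates 2 and 3 alone 25 of 37 passed in H3K4me2 (58.3% of all windows) and 15 in H3K4me1 (39.4%), shares not far from those of all windows. Signs were the same in both batches at 14 genes in H3K4me2 (27.2% of windows) and 17 in H3K4me1 (33.1%).

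**Figure D2:**
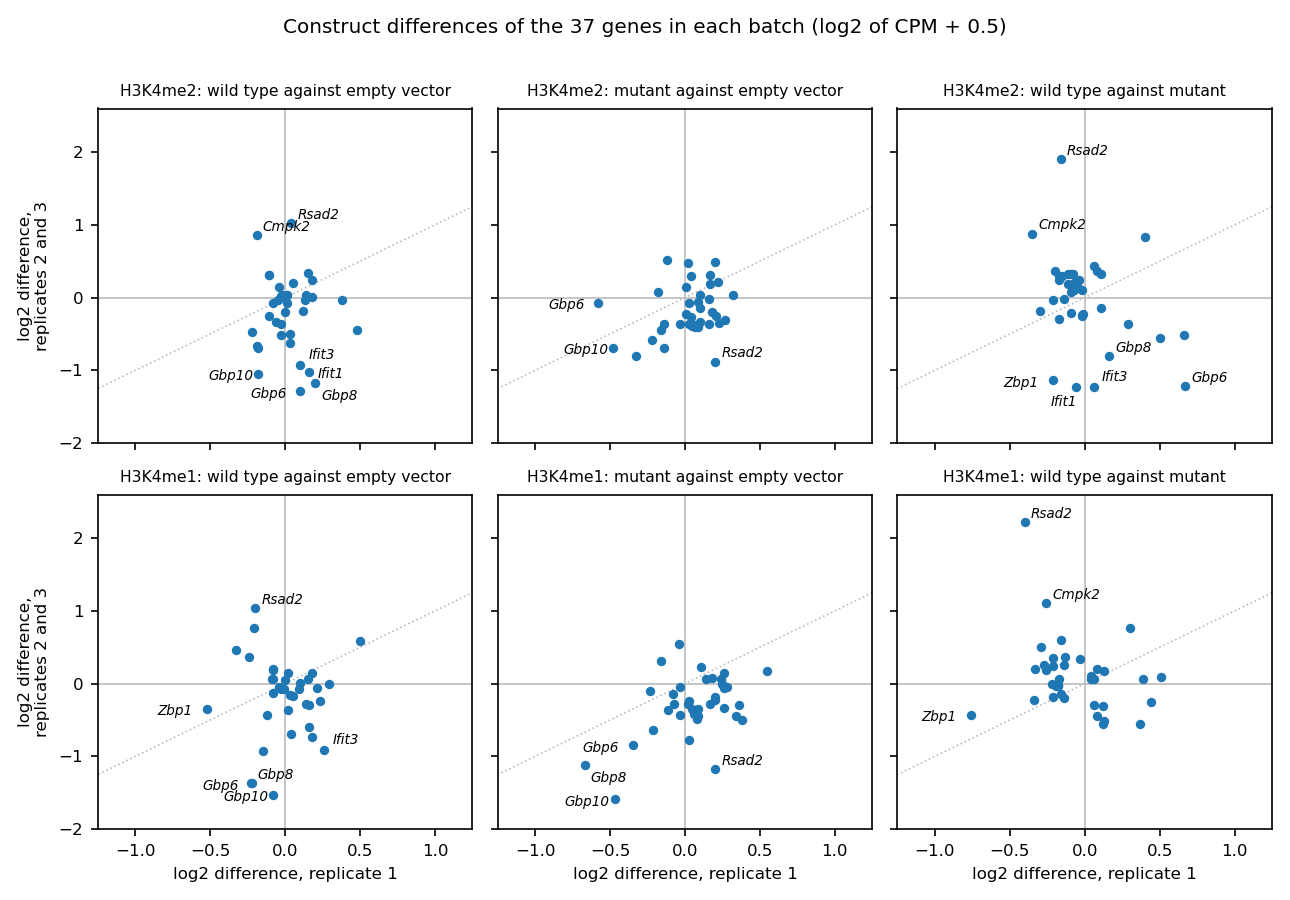
Log2 difference between constructs in replicate 1 (horizontal) and in the mean of replicates 2 and 3 (vertical) for each of the 37 genes, on log2(CPM + 0.5); rows are the marks, columns the 3 comparisons, and the dotted line marks equal differences. Points spread along the vertical axis more than along the horizontal one: for Rsad2 wild type against mutant in H3K4me1 is -0.40 in replicate 1 and 2.22 in replicates 2 and 3.

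The differences in replicates 2 and 3 were local in some places and ran over neighbouring genes. Rsad2 (chr12:26442743-26456452) and Cmpk2 (chr12:26469117-26479837) start 12763 bp apart. Cmpk2 H3K4me2 was 64.7, 39.8 and 38.6 CPM with the empty vector, 56.5, 73.2 and 70 with wild type, and 72.3, 39 and 38.3 with the mutant, and its H3K4me1 was 55.6, 31.7 and 33.3 with the empty vector. Wild type was thus the lowest construct of the 3 in replicate 1 and the highest in replicates 2 and 3 in both marks. The neighbour Rnf144a, a ubiquitin ligase gene that is not among the 37, went the same way: its H3K4me2 was 69.7, 40.9 and 32.3 with the empty vector, 61.9, 76.1 and 70.2 with wild type, and 69.1, 24.4 and 25.3 with the mutant. Farther out, Sox11 held 1.67 to 4.22 CPM in all 9 H3K4me2 libraries, near the silent families, where such a difference could hardly show, so the outer limit of the stretch is not known. It had a log2 difference of -0.43 between wild type and mutant in replicates 2 and 3, where Rnf144a had 1.54, Rsad2 1.90 and Cmpk2 0.88. On chromosome 12 the medians of all 998 windows in replicates 2 and 3 were 0.31 for wild type against empty vector, 0.51 for mutant against empty vector and -0.08 between wild type and mutant. In the same 3 comparisons of H3K4me2, Rsad2 had 1.03, -0.88 and 1.90. The part of the chromosome's shift in the Rsad2 values was not tested.

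In the guanylate-binding cluster on chromosome 5 the empty-vector libraries of replicates 2 and 3 stood out. Gbp6 H3K4me2 was 6.58, 16.8 and 16.6 CPM with the empty vector, 7.08, 6.67 and 6.34 with wild type and 4.25, 16.5 and 15.2 with the mutant, so there mutant replicates 2 and 3 were as high as those of the empty vector. In H3K4me1 the mutant libraries of Gbp6, 8.48, 13.9 and 12.3, lay nearer to wild type. Gbp4 and Gbp11, cluster genes that are not among the 37, had H3K4me1 of 32 and 34.1, and of 52.5 and 56.2 CPM, in empty-vector replicates 2 and 3, beside 8.1 to 11.6 and 15.9 to 20.3 in the 6 libraries of the other constructs. In empty-vector replicate 1 they had 9.63 and 23.2. The flanking gene Lrrc8b did not follow, with 78.1, 69.2 and 69.1 CPM of H3K4me1 with the empty vector, 77.2, 85.4 and 83.7 with wild type and 90.3, 66.7 and 69.5 with the mutant. On the other flank Abcg3, not among the 37, had H3K4me1 of 10.7, 20.1 and 19.1, then 11.2, 10.8 and 14.8, then 13.2, 13.4 and 16.5. Empty-vector replicates 2 and 3 were its highest libraries too, by less than at Gbp4 and Gbp11. The outer limit of the difference on that side is not known. The medians of chromosome 5 in replicates 2 and 3 lay between -0.06 and 0.02 in the 6 comparisons.

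In the Ifit cluster on chromosome 19, Ifit3 and Ifit1 had low values in wild-type replicates 2 and 3, and Ifit2, which starts 32441 bp from Ifit3, did not. Ifit3 H3K4me2 was 4.12, 6.27 and 7.17 CPM with the empty vector, 4.45, 2.4 and 4.4 with wild type and 4.25, 7.84 and 8.84 with the mutant. The constructs lay close together in replicate 1 and parted in replicates 2 and 3. Ifit3b, its near-copy outside the list, had 5.14, 10 and 8.51, then 6.51, 4.59 and 5.52, then 4.72, 10.1 and 12. Reads of near-identical copies may have been split between these genes by the counting, so which copy differs is uncertain.

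**Figure D3:**
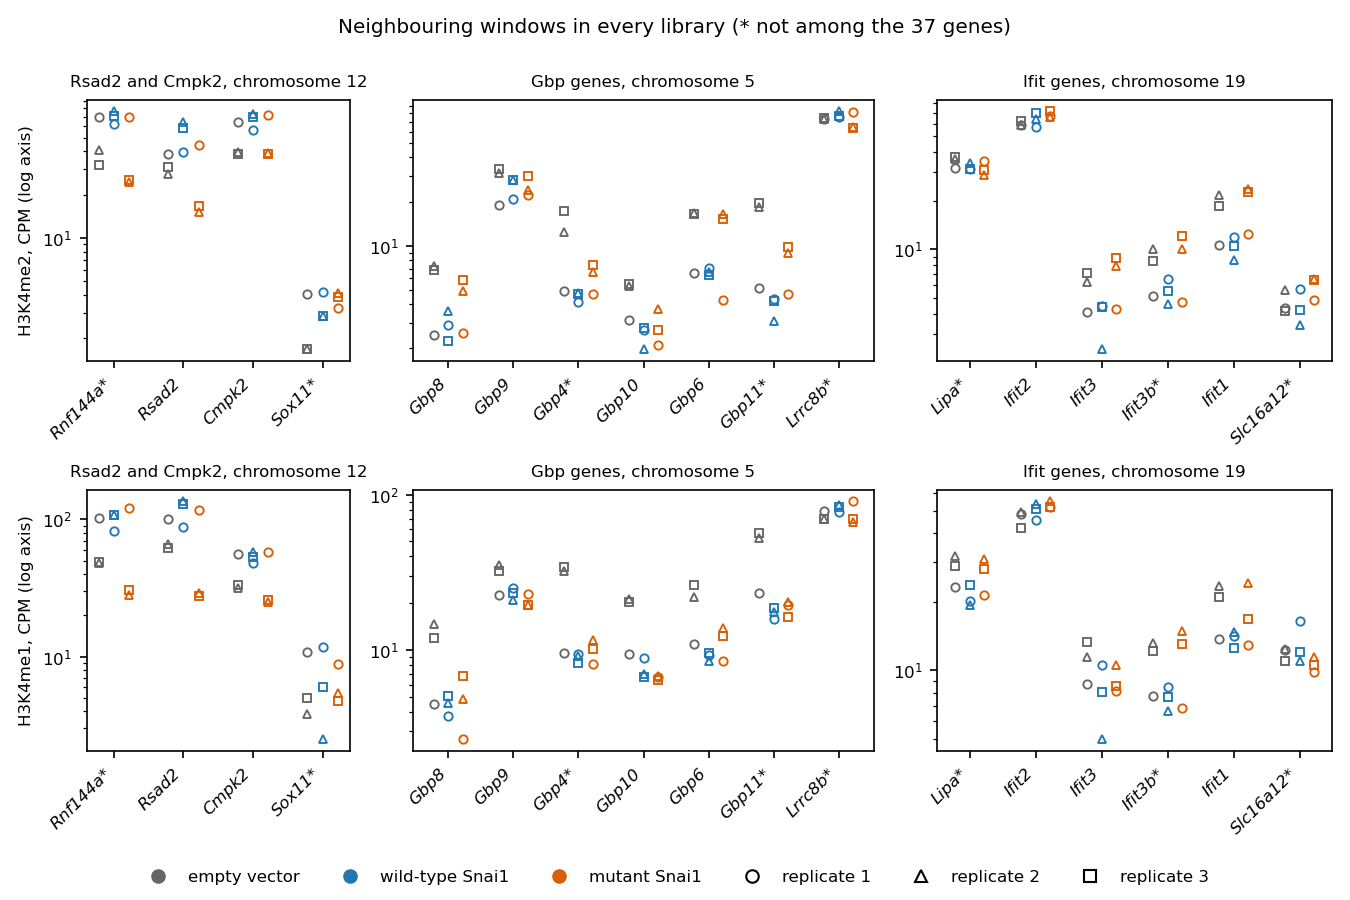
H3K4me2 (top) and H3K4me1 (bottom) in CPM on log axes in every library for windows in genome order at the Rsad2 and Cmpk2 locus, the chromosome 5 guanylate-binding cluster and the Ifit cluster; colours give the construct and shapes the replicate. Circles of replicate 1 lie close together within a gene, while triangles and squares of replicates 2 and 3 part by construct at Rnf144a, Rsad2 and Cmpk2, at Gbp4 and Gbp11, and at Ifit3 and Ifit1. They part by less at Lrrc8b and Ifit2. There the log2 difference of wild type over mutant in replicates 2 and 3 is 0.31 and -0.03, in both marks.

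Replicate 1 was then set against replicates 2 and 3 with the construct as a block and replicates 2 and 3 summed (3 samples against 3), since each construct stands on both sides. This split was chosen because replicate 1 stood apart in these same counts, so calls were likely in advance. The 3 samples of a side are the 3 constructs of 1 batch, so the p-values do not measure the spread between batches. In H3K4me2, 5 of 37 genes passed edgeR's test beside 3.65% of 25943 windows: Samd9l (log2 of replicate 1 over the others -0.56, adjusted p = 0.00463), Mx1 (-1.05, 0.0143) and Gbp6 (-1.05, 0.0329) were lower in replicate 1 and Zbp1 (0.96, 0.0377) and Cmpk2 (0.43, 0.0494) higher. In H3K4me1, 4 of 37 passed beside 10.3% of 25804 windows: Mx1 (-1.19, 3.5e-07) and Stat2 (-0.61, 0.0128) lower, and Zbp1 (0.53, 0.0159) and Cmpk2 (0.58, 0.0233) higher. Mx1, Zbp1 and Cmpk2 passed in both marks with the same sign. The H3K4me2 median was -0.231 with 29 of 37 negative, beside -0.018 for all windows, and the H3K4me1 median -0.039 with 22 negative, beside -0.008.

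Mx1 gave the clearest difference. Its H3K4me1 was 22, 53.1 and 54.8 CPM with the empty vector, 31.4, 85.2 and 77.4 with wild type and 25.4, 49.2 and 45.6 with the mutant, so replicate 1 was below replicates 2 and 3 in each construct. Its H3K4me2 went the same way, with 9.12, 20.4 and 20.2, then 10.4, 24.9 and 23.2, then 7.75, 12.9 and 13.6. The median of its chromosome 16 was -0.02 and -0.05. Its neighbour Bace2, not among the 37, went the other way with the empty vector (14.3, 5.88 and 6.83 CPM of H3K4me2). Fam3b, which lies between Mx1 and Mx2 and is not among the 37, followed Mx1 in H3K4me1 and not in H3K4me2. Its H3K4me1 was 17.5, 28 and 27.9, then 21.5, 26.8 and 24.9, then 18.5, 24.7 and 24.6. Mx2 H3K4me1 was also lowest in replicate 1 of each construct, by less (-0.25, edgeR adjusted p = 0.324). The H3K4me1 difference was thus not confined to Mx1. Samd9l H3K4me2 was 40.4, 61.8 and 68.1, then 39, 61.2 and 65.3, then 41.3, 50.7 and 50.1, again with replicate 1 lowest in each construct. Zbp1 had the opposite order, with H3K4me2 of 16.9, 8.82 and 8.51, then 14.7, 5.35 and 5.21, then 17.1, 12.9 and 11.6, and H3K4me1 of 60.1, 42.8 and 40.5, then 41.7, 32.4 and 32.7, then 71.1, 41.7 and 46.1. Stat2 H3K4me1 was 26, 47 and 50.3, then 28.6, 40.2 and 39.6, then 27.7, 36.2 and 40.2, while its H3K4me2 differed by -0.10. For Cmpk2, Gbp6 and Rsad2 the constructs did not go together: wild type differed by -0.34, 0.11 and -0.62 in H3K4me2, the empty vector by 0.71, -1.28 and 0.37 and the mutant by 0.90, -1.78 and 1.45. Rsad2 did not pass with all constructs (0.40, adjusted p = 0.243; 0.67 and 0.0615 in H3K4me1) and passed without the wild-type libraries (0.92, adjusted p = 0.00615, and 1.33, 1.83e-09). Gbp8 H3K4me1 (-1.02, SE 0.367, adjusted p = 0.0652) did not pass with all constructs and passed without the wild-type libraries (-1.34, adjusted p = 0.00125). Over all 9 alternative settings, Gbp8 H3K4me1 passed in 5 and Rsad2 H3K4me1 in 4.

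None of the 5 H3K4me2 calls held with the scale set on the silent families except Zbp1, and 0 of the 37 passed without the empty-vector or without the mutant libraries. In H3K4me1 the Mx1 call held without any of the 3 constructs and was lost with silent-family scaling (-0.89, adjusted p = 0.12), under which all windows had a median of 0.292 (0.276 in H3K4me2). The H3K4me1 calls of Zbp1 and Cmpk2 were lost with that scaling (0.83 and 0.88, adjusted p = 0.167 and 0.143), without the empty-vector libraries (0.52 and 0.47, adjusted p = 0.362 and 0.497) and without the mutant libraries (0.45 and 0.29, adjusted p = 0.175 and 0.473), and that of Cmpk2 also without replicate 2 (0.56, adjusted p = 0.0779). The Stat2 call was lost with silent-family scaling (-0.32, adjusted p = 0.631) and without the empty-vector libraries (-0.48, adjusted p = 0.516). With silent-family scaling the H3K4me2 member median was 0.058, so its negative sign rests on the scaling. Some cell type markers also passed in this split, beside 3.65% of all windows in H3K4me2 and 10.3% in H3K4me1. Of 10 blood progenitor markers 3 passed in each mark: Lmo2 (-1.28), Gfi1b (-0.45) and Lyl1 (0.55) in H3K4me2, and Gata2 (1.04), Kit (0.62) and Lyl1 (0.98) in H3K4me1. Of 7 macrophage and dendritic markers Itgax passed in H3K4me2 (-0.90) and 0 in H3K4me1. Of 5 epithelial markers 0 passed in H3K4me2 and Krt8 in H3K4me1 (0.84). Of 6 lymphoid and 5 fibroblast markers 0 passed in either mark. The part of these markers in the differences of interferon-stimulated genes was not tested.

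**Figure D4:**
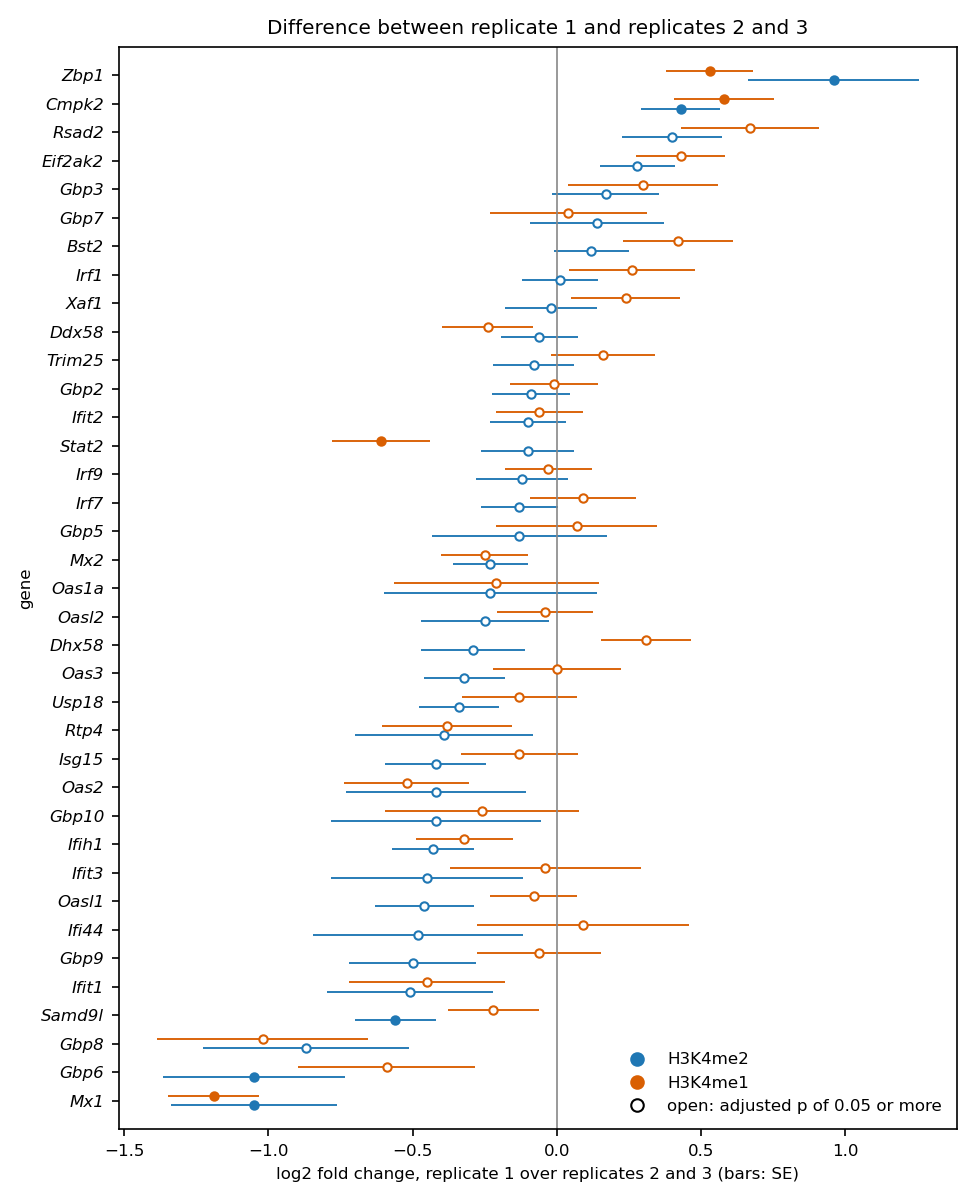
Log2 fold change of replicate 1 over replicates 2 and 3 for each of the 37 genes (bars give the SE of edgeR's fit), with filled points where the adjusted p is below 0.05. Mx1 lies at -1.05 in H3K4me2 and -1.19 in H3K4me1, and Zbp1 (0.96 and 0.53) and Cmpk2 (0.43 and 0.58) lie on the other side of 0.

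The other genes of the pathway differed in level between its arms, given in H3K4me2 unless the mark is named. Of 11 interferon genes, the ligands, the highest was Ifna4 (H3K4me2 7.92 CPM) and the median was 3.21, near the silent families, with Ifnb1 at 2.84 and Ifng at 3.46. Among receptors and kinases Ifnar1 had 63.5, Ifnar2 79.8, Ifngr1 84.3, Jak1 87.4 and Tyk2 94.2, while Ifnlr1, the type III receptor chain, had 3.71. Among 14 genes of interferon induction the adaptor Mavs had 84.8, the DNA sensor Cgas 113 and Irf3 85, while the endosomal receptors Tlr3, Tlr7 and Tlr9 had 16.8, 10.7 and 18.4. These receptors still lay above the median of all windows (8.97), and in H3K4me1 they had 14.5, 62.2 and 53.6 CPM beside 24.8 for all windows. The 6 inhibitors, such as Socs1 (78.3) and Ptpn6 (106), had a median of 77.4 in H3K4me2. In the 3 construct comparisons 0 of the 11 ligands, 0 of the 14 induction genes and 0 of the 6 inhibitors passed edgeR's test in either mark, nor did the receptors and kinases named here, and the induction list had 3 of 14 at an unadjusted p under 0.05 in H3K4me2 between wild type and mutant, beside 9.9% of all windows: the adaptor Sting1 (0.36, SE 0.125) and Tlr7 (0.67, SE 0.261) had higher and Tlr3 (-0.82, SE 0.356) lower values in wild type. Between replicate 1 and replicates 2 and 3, 2 of 14 induction genes passed in H3K4me2, beside 3.65% of all windows. Irf2 (0.61) was higher and Ikbke (-0.79) lower in replicate 1. Of the 11 ligands and the 6 inhibitors 0 passed in H3K4me2. In H3K4me1, beside 10.3% of all windows, 1 of 14 induction genes passed, Tlr7 (0.60). So did 2 of 6 inhibitors, Socs1 (0.55) and Pias1 (-0.51), and 1 of 11 ligands, Ifnl3 (-0.91).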

How the data were processed

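H3K4me2, H3K4me1 and IgG ChIP-seq of HPC7 cells were given as raw counts per start-site window, made by the authors with Subread and featureCounts per the submitters' processing notes, on GRCm38/mm10, with no versions stated. The deposited peak lists hold the fold enrichment, the -log10 q and a score per peak, and MACS2 is the caller per the submitters' processing notes. The labels number the replicates, and each peak list pools the technical replicates of a construct.

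Of 27095 rows, 25204 IDs matched a RefSeq table of GRCm38.p6. Rows with no read (20) and rows equal to an earlier row (31) were left out. Counts were tested with edgeR 4.0.16 (R 4.3.3): TMM, filterByExpr with a minimum count of 10, quasi-likelihood F-test, two-sided, adjusted by Benjamini-Hochberg over all windows at 0.05, over the 9 libraries of a mark without a batch term. Printed CPM are on TMM library sizes, and beside IgG on column totals. The SE is the log2 fold change divided by the root of F. Empty-vector H3K4me1 replicates 2 and 3 (variance ratio 0.98) were summed, a choice made with the data known. DESeq2 1.42.0 was an alternative. A peak counted as near within 5 kb of a gene end. Python 3.11.15, pandas 2.3.3, numpy 2.4.6 and matplotlib 3.10.9 were used.

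The members and lists were chosen with earlier results of these data known. Library values are printed for the 3 members with the smallest p per mark and comparison (in the batch comparison per direction), for those whose constructs do not overlap with 1 sign in both batches, for the 3 highest and 3 lowest per mark, and for the member with a wild-type peak. Other genes with library values (neighbours, Xaf1, Cmpk2, Ifit3) were chosen after their values were seen. Same-numbered libraries of different constructs correlated at -0.21 to 0.58 in their deviations from the group means and differently numbered ones at -0.49 to 0.40, so the numbers were not taken to pair the libraries. The list of receptors and kinases is not reported here as a whole.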

Additional observations from a re-analysis of the deposited data

Results flagged for a closer look

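At 3 genes replicates 2 and 3 lay on opposite sides of replicate 1 in 2 constructs, in both marks and by at least 1 on the log2 scale, a minimum set after the data were seen; the difference between constructs was not tested. At Rsad2 the change from replicate 1 to replicates 2 and 3 was higher in wild type than in the mutant by 2.07 in H3K4me2 and 2.62 in H3K4me1. At Cmpk2, its neighbour on chromosome 12, the same difference was 1.23 and 1.37. At Ifit3 the change was higher with the empty vector than with wild type by 1.03 and 1.17, at low levels of both marks.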

How the results depend on the processing

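With the replicate block, 0 of 37 genes passed in each of the 6 construct comparisons, as without it; the numbers were not taken to pair the libraries, and 13 of 18 libraries correlated best with their own number. With replicates 2 and 3 only, 20, 20 and 25 passed in H3K4me2 (wild type over empty vector, mutant over empty vector, wild type over mutant), beside 23.5%, 32.7% and 58.3% of all windows, and 17, 19 and 15 in H3K4me1, beside 28.6%, 24.2% and 39.4%, where the median of mutant against empty vector was -0.280. Leaving out 1 library gave 0 to 2 calls in H3K4me2 for mutant over empty vector and 0 to 7 for wild type over mutant. In H3K4me1 it gave 0 to 1 for wild type over mutant. The highest counts were without mutant replicate 1, where in that order 2.4%, 16.6% and 0.823% of all windows passed. Without empty-vector replicate 1, 1 gene passed for mutant over empty vector in H3K4me2, beside 1.58% of all windows. A batch term with replicates 2 and 3 summed gave 1 for wild type against mutant in H3K4me2, beside 0.45% of all windows. Silent-family scaling put the H3K4me2 medians at -0.303 (mutant over empty vector) and 0.324 (wild type over mutant), with all windows at -0.126 and 0.248. Between replicate 1 and replicates 2 and 3 it gave medians of 0.058 and 0.263, with all windows at 0.276 and 0.292, and 1 call in each mark (3.14% and 5.46% of all windows). There, with the share of all windows called in brackets, H3K4me2 had 10 calls unsummed (11.1%) and 3 with RLE scaling (2.26%). It had 0 without empty-vector (0.347%), 3 without wild-type (3.72%) and 0 without mutant libraries (0.12%). Without replicate 3 it had 3 (2.53%), and without replicate 2 it had 7, for which no share is given. H3K4me1 had 9 calls unsummed (25%), 1 without empty-vector (1.92%, median 0.111), 9 without wild-type (17.7%) and 2 without mutant libraries (5.69%). Near a wild-type peak were 0 genes at a -log10 q of at least 10 (3.41% of all genes) and 3 within 10 kb (10.6%), and near a mutant peak 5 at that q (14.9%). With TMM over mark and IgG libraries 21 genes lay above IgG in H3K4me2 (42.2% of all windows). The other 241 summary values stayed on their side. Of the single-gene values 608 stayed, 42 newly passed and 32 no longer passed. These cover only the genes picked per comparison by smallest p or lack of overlap, not all 37. Signs were not stable for every gene. Rsad2 H3K4me2 between replicate 1 and replicates 2 and 3 ran from -0.13 to 0.92 over the settings. Keeping 1 gene per neighbouring group was not run, since no 2 members start within 10 kb. The cause of these shifts was not tested. Precision is limited by 3 libraries a group and, at windows near the silent families, by depth.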
